A study of Xenopus laevis with 6 samples.

Results

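Genes of chromatin remodelers and histone modifiers were followed after depletion of Apcdd1, which sits in the membrane and is known to dampen Wnt and BMP signalling, in dorsal pieces of Xenopus laevis gastrulae. The genes were taken by name: all probe sets whose only gene symbol in the platform annotation begins with smarc, arid, chd and a digit, hdac, sirt, kdm, kmt, kat and a digit, setd, ezh, eed, suz12, prmt, brd and a digit, dnmt, tet, cbx or ino80. This gave 135 of the 32634 probe sets of the array, for 87 of the 11302 genes named. A further 4 probe sets match by 1 of several symbols and were left out, and none of them was called different. This frog is an allotetraploid with a long and a short chromosome in each homeologous pair, and many genes exist as 2 homeologs, named .L and .S for them.

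Embryos of the 4-cell stage were injected in both dorsal blastomeres with 10 ng of either an antisense morpholino (MO) against apcdd1 or a control MO, grown at 16 degrees C and cut at stage 10.5. Each group, apcdd1-depleted and control, has 3 batches of 10 embryos and 3 Affymetrix arrays, which makes 6 arrays in all. No strain is named in the labels, and the treatment text of the control samples names the apcdd1 MO, so the groups follow the genotype label. Depleted embryos, but not controls, carried a ventral dye mark since their dorsal lip could come late, so dye, any delay and depletion cannot be told apart. Whether each batch had its own clutch is not in the labels, and the p-values cover the spread among these batches alone.

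Chromatin in the early embryo is shaped by several kinds of enzyme. Remodelers of the SWI/SNF, ISWI, CHD and INO80 families use ATP to move or exchange nucleosomes. Acetyltransferases and methyltransferases write marks on histone tails, deacetylases and demethylases remove them, and bromodomain and chromobox proteins bind them. Much of this machinery is laid down in the egg as maternal RNA and protein and is known to act when the zygotic genome is switched on and when germ layer genes are set on or off.

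For apcdd1 itself, 1 probe set of apcdd1.L is on the array. Its signal was 229, 252 and 258 on the depleted arrays, against 314, 300 and 310 on the control arrays, without overlap. A morpholino blocks translation or splicing, so this does not measure the depletion. Of 13 organizer and axial mesoderm markers, the genes that define dorsal tissue, 12 had a probe set above the signal filter described next. Their summed signal was 20047 to 21199 in depleted and 22820 to 26171 in control arrays, while that of the ventral and lateral markers was 4935 to 5182 in depleted and 4277 to 4583 in control arrays. For animal ectoderm it was 4074 to 4247 in depleted and 3434 to 3664 in control arrays, for germ plasm and maternal markers 1934 to 2650 in depleted and 3205 to 3366 in control arrays, and for endoderm 17197 to 19535 in depleted and 17999 to 18781 in control arrays. The brightest probe sets weigh most in such sums. In the test described next, 0 of 22 organizer probe sets were called higher and 5 lower. For the ventral and lateral list 3 of 14 were higher and 1 lower, and for animal ectoderm 3 of 8 and 0. For endoderm it was 0 of 11 and 2, and for germ plasm and maternal markers 0 of 6 and 3. Of all tested probe sets 3.00% were called higher and 3.61% lower. In these bulk pieces, fewer cells of a type and less RNA per cell cannot be told apart, and the part of such shifts in the results below was not tested. RNA integrity was read from gapdh, whose 3' control probe set over its 5' one gave 1.87 ± 0.07 in depleted and 1.77 ± 0.03 in control arrays (SD, n = 3 each), and its part was not tested either.

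Most chromatin genes stood at nearly the same signal in both groups. Of the 135 probe sets, 112, for 82 genes, had a mean log2 signal in the upper part of the array (a signal of at least 22.3) and were tested. In limma, with Benjamini-Hochberg adjustment over all 19484 tested probe sets and a threshold of 0.05, 2 of the 112 rose, both of prmt9.L, and 1 fell, of kmt5a.S. That is 2.68% called, against 6.62% of all tested probe sets (3.00% higher and 3.61% lower) and 6.90% of those with 1 gene symbol (3.09% higher and 3.81% lower). At an unadjusted p under 0.05 there were 10, or 8.93%, against 19.0% of all tested. The enzyme classes below are small, so 0 calls in one of them does not set it apart from these shares. The 3 depleted arrays lay wholly above the 3 control arrays in 11 of the chromatin probe sets and wholly below in 13, together 21.4%, against 24.7% of all tested (11.9% above and 12.8% below).

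The sizes of the changes were small as well. No chromatin probe set was called with a change of 1.5-fold or more, which 2.61% of all tested probe sets were. The median absolute log2 change was 0.08, against 0.10 over all tested, and the 90th percentile of the absolute change was 0.21, against 0.32. For 104 of the 112 (92.9%, against 88.4% of all tested) the 95% interval of the change lay inside 1.5-fold in both directions. For 65 (58.0%, against 52.0%) it lay inside 1.25-fold. Of all tested probe sets with 1 gene symbol, 89.6% lay inside 1.5-fold and 56.4% inside 1.25-fold. Their median absolute log2 change was 0.09 and its 90th percentile 0.31. Their median signal was 231, against 237 for the chromatin probe sets and 160 for all tested. The median signed log2 change was -0.03, against 0.00 over all tested, and 45 of the 112 (40.2%) had a positive change, against 50.1%. The median standard error was 0.09 for the chromatin probe sets and for all tested.

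**Figure D1:**
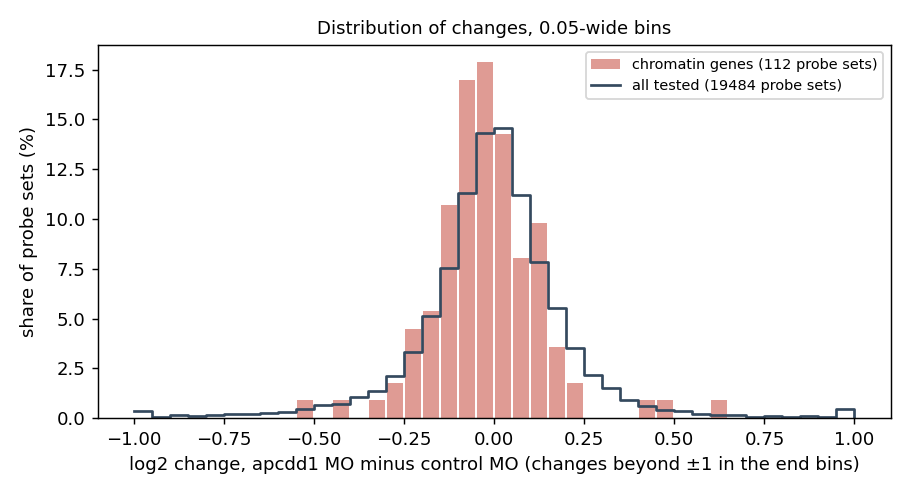
Share of probe sets (%, vertical axis) by log2 change of signal, apcdd1-depleted minus control (horizontal axis, bins 0.05 wide), for the 112 tested chromatin probe sets (bars) and all 19484 tested probe sets (line). Both centre near 0, and the chromatin bars end at -0.51 and 0.65 while the line goes on to the end bins.

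Arginine methyltransferases, which put methyl groups on arginines of histones and other proteins, held both increases. prmt9.L encodes a symmetric dimethylating enzyme whose best known substrate, in mammals, is a splicing factor. Its probe set Xl2.32019.1.S1_at read 99.3, 102 and 110 on the depleted arrays, against 76.2, 76.5 and 69.6 on the control arrays. The depleted arrays all lay higher, a rise of 1.40-fold (log2 change 0.48 ± 0.09 SE, limma adjusted p = 0.0093). The second, Xl2.32019.2.A1_at, read 352, 304 and 321 on the depleted arrays, against 246, 245 and 248 on the control arrays, a rise of 1.32-fold (log2 change 0.40 ± 0.07 SE, limma adjusted p = 0.011). The control arrays stood close together on it, at 246 ± 1.87, and the depleted arrays at 326 ± 24.1 (SD, n = 3 each).

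A further pair of prmt9.L probe sets was too dim for the test. Fitted without the filter, they had log2 changes of 0.48 and 0.10, and limma adjusted p = 0.14 and 0.82. In that fit 0 of the 23 dim chromatin probe sets and 0.793% of all dim ones were called. No prmt9.S probe set is named here, so the homeologs could not be compared. Averaged over its 2 tested probe sets, prmt9.L had a log2 change of 0.44 ± 0.07 (SE, limma adjusted p = 0.0052) and was then the one called chromatin gene. Without depleted array 3 the adjusted p of its probe sets was 0.054 and 0.0501, and without control array 2 that of the second was 0.061.

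The other 9 tested probe sets of arginine methyltransferases were not called and ran from -0.16 to 0.11. prmt1, the main asymmetric dimethylating enzyme, had log2 changes of -0.06 ± 0.04 in prmt1.L and -0.10 ± 0.05 in prmt1.S (SE). prmt5, the main symmetric enzyme, known in Xenopus eggs to methylate histones held by nucleoplasmin, had 0.11 ± 0.08 in prmt5.L and -0.03 ± 0.09 in prmt5.S. The 3 probe sets of prmt3.S, whose product methylates a ribosomal protein in yeast and mammals, lay between -0.16 and -0.08.

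**Figure D2:**
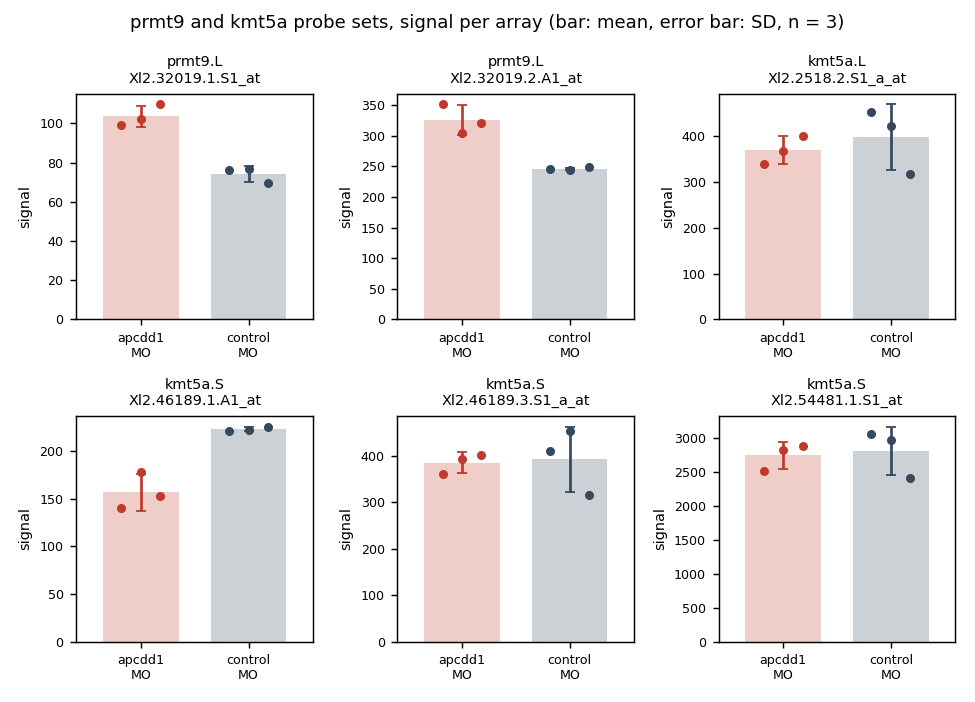
Signal per array (vertical axes, linear from 0) of the tested prmt9.L, kmt5a.L and kmt5a.S probe sets in apcdd1-depleted (left, red) and control (right, grey) arrays; bars are means, error bars SD, points single arrays, n = 3. The groups are apart on both prmt9.L probe sets and on Xl2.46189.1.A1_at of kmt5a.S, and overlap on the other 3. They are apart on 24.7% of all tested probe sets.

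Lysine methyltransferases held the single decrease. kmt5a, also called Set8, encodes the enzyme that adds the first methyl group to a lysine of the histone H4 tail, a mark tied to the cell cycle and to chromosome compaction. Xl2.46189.1.A1_at of kmt5a.S read 140, 178 and 153 on the depleted arrays, against 221, 222 and 226 on the control arrays. All depleted arrays lay lower, by 1.43-fold (log2 change -0.51 ± 0.09 SE, limma adjusted p = 0.010). The other probe sets of kmt5a.S did not pass: Xl2.54481.1.S1_at read 2516, 2827 and 2884 on the depleted arrays, against 3061, 2963 and 2406 on the control arrays. Its groups overlapped, with a log2 change of -0.03 and a 95% interval from -0.24 to 0.18. The third had -0.01 ± 0.12 and kmt5a.L -0.09 ± 0.13 (SE).

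Of the 21 chromatin genes with several tested probe sets, kmt5a.S had the widest gap between them, 0.50 on the log2 scale against a median of 0.10, and the mean of its 3 probe sets was not called. Its call ended without depleted array 3 (limma adjusted p = 0.054) and without control array 2 (0.052). Which transcripts each of the 3 reads was not tested.

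The other 12 tested lysine methyltransferase probe sets, kmt5a.L and the remaining kmt5a.S ones included, were not called. kmt5b, which adds further methyl groups to the same lysine, had log2 changes of 0.05 ± 0.12 in kmt5b.L and -0.12 ± 0.09 in kmt5b.S (SE). setdb1.L, encoding a methyltransferase of silent chromatin, stood at 0.05 ± 0.11 and 0.04 ± 0.10 on its tested probe sets. The least precise value was that of a setd4.L probe set, -0.23 ± 0.38, which read 83.7, 161 and 82.6 on the depleted arrays, against 79.2, 183 and 125 on the control arrays. setd5.L, setd6.L and setd1b.S lay between -0.08 and 0.14.

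Polycomb repressive complex 2 places a repressive methyl mark on histone H3 through its catalytic subunit Ezh2 and the core subunits Eed and Suz12. None of its 6 tested probe sets was called in limma, and 2 had an unadjusted p under 0.05 (6.62% and 19.0% of all tested). Those 2 went in opposite directions. eed.L read 424, 394 and 407 on the depleted arrays, against 323, 348 and 362 on the control arrays, apart and higher (log2 change 0.25 ± 0.07 SE, limma adjusted p = 0.076). eed.S read 859, 739 and 733 on the depleted arrays, against 726, 768 and 782 on the control arrays, with overlap.

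The suz12 probe set Xl2.8479.1.S1_at read 37.5, 39.6 and 40.3 on the depleted arrays, against 44.0, 56.5 and 55.3 on the control arrays (log2 change -0.40 ± 0.12 SE, limma adjusted p = 0.077). The other tested suz12 probe sets stood at -0.12 ± 0.08 and -0.01 ± 0.07. Of the tested suz12 probe sets only the last, at -0.01, was matched in RefSeq. ezh2.L read 1252, 1465 and 1330 on the depleted arrays, against 1346, 1490 and 1322 on the control arrays, with a log2 change of -0.04 and a 95% interval from -0.20 to 0.13. The subunits of this complex had no common direction, with 2 positive and 4 negative changes.

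Chromobox proteins bind such methyl marks, some in heterochromatin (cbx1, cbx3, cbx5) and some in Polycomb complexes (cbx2, cbx6, cbx8). Of their 10 tested probe sets 8 had a negative change, with a median of -0.06. None was called in limma, and 1 had an unadjusted p under 0.05 (6.62% and 19.0% of all tested). That one, cbx8.S, read 70.4, 61.6 and 65.0 on the depleted arrays, against 76.3, 77.8 and 77.2 on the control arrays (log2 change -0.23 ± 0.09 SE, limma adjusted p = 0.18). The heterochromatin gene cbx3 had log2 changes of -0.05 ± 0.05 in cbx3.L and 0.01 ± 0.05 in cbx3.S.

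SWI/SNF complexes, also called BAF, remodel nucleosomes at enhancers and promoters around an ATPase subunit encoded by smarca2 or smarca4. Of all tested probe sets 6.62% were called and 19.0% had an unadjusted p under 0.05. None of the 17 tested here, for 11 genes, was called in limma, and 1 had such a p. It was the probe set of the ATPase gene smarca4.S, which read 47.9, 39.1 and 47.5 on the depleted arrays, against 54.3, 52.0 and 59.4 on the control arrays (log2 change -0.30 ± 0.11 SE, limma adjusted p = 0.16). The other tested probe sets ran from -0.20 to 0.10. Among the core subunit genes, smarcb1.S stood at 0.09 ± 0.08, smarce1.L between 0.04 and 0.06 on its 3 probe sets, and smarcc1.L at 0.00 ± 0.10 and -0.08 ± 0.10 (SE). The more negative ones were smarcc2.L at -0.09 ± 0.09, smarcd3.S at -0.13 ± 0.07, smarcd2.L at -0.16 ± 0.12 and arid2.S at -0.20 ± 0.14. The mean signal of arid2.S, 23.6 in depleted and 27.3 in control arrays, was near the filter's, and arid2.L had -0.04 ± 0.07. smarcd1.L had 0.10 ± 0.07 and -0.02 ± 0.07 on its probe sets, and the alternative ATPase smarca2.L lay between -0.10 and -0.04. Over the complex 5 changes were positive and 12 negative, with a median of -0.04.

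**Figure D3:**
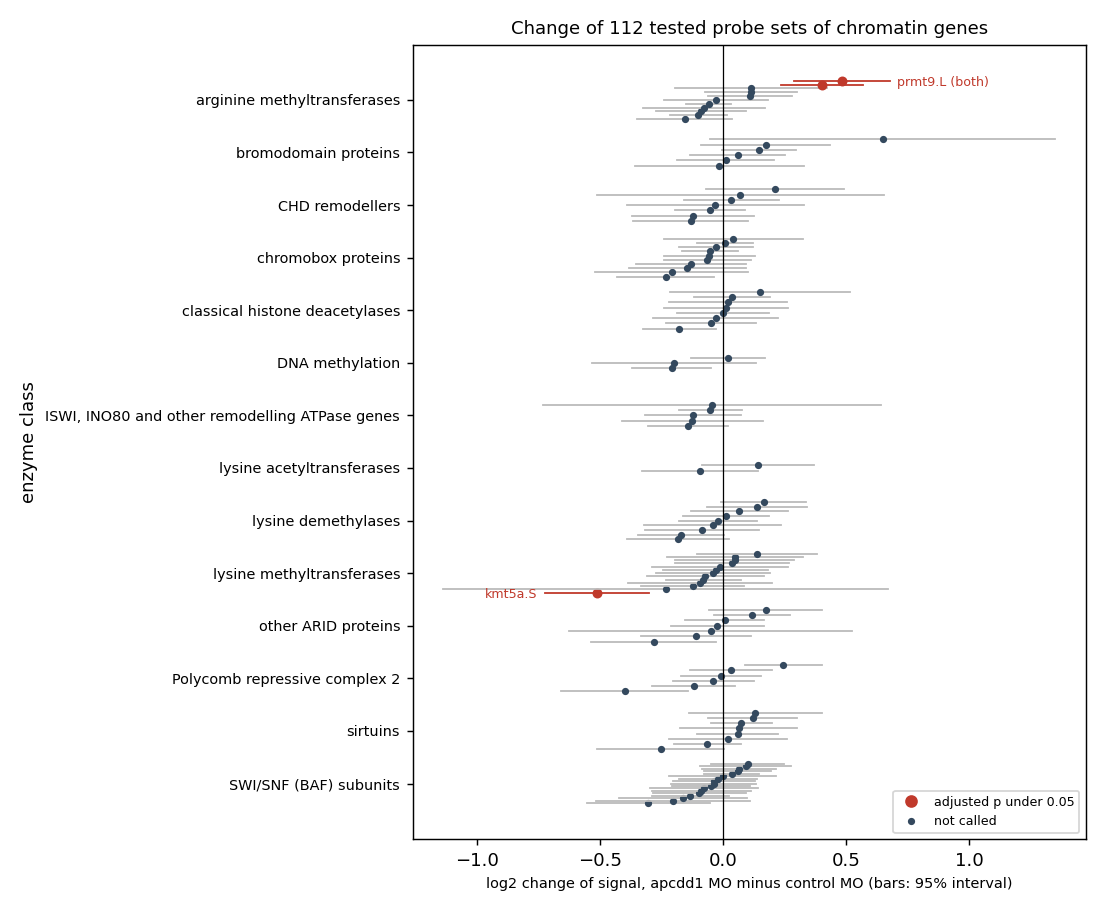
Log2 change of signal, apcdd1-depleted minus control, with its 95% interval from limma (horizontal axis) for each of the 112 tested chromatin probe sets, grouped by enzyme class (vertical axis). The 3 called probe sets are in red, both of prmt9.L to the right and 1 of kmt5a.S to the left, and most other intervals cross 0.

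Among the other remodelers, none of the 5 tested ISWI, INO80 and related probe sets was called in limma (6.62% of all tested). None had an unadjusted p under 0.05 (19.0% of all tested), and all had a negative change, between -0.14 and -0.04. The ISWI ATPase gene smarca5.S read 1471, 1439 and 1534 on the depleted arrays, against 1553, 1599 and 1457 on the control arrays. smarcal1.L, which encodes an annealing helicase of stalled replication forks, had the lowest p of them, with 150, 149 and 155 on the depleted arrays, against 166, 162 and 173 on the control arrays (log2 change -0.14 ± 0.07 SE). The CHD genes had 0 of 7 probe sets called in limma and none with an unadjusted p under 0.05, beside the same shares. chd4.L, the ATPase of the NuRD complex, stood at -0.05 ± 0.06, and the 4 probe sets of chd7.L, a gene known for its role in neural crest, between -0.13 and 0.03. chd1.L, whose product acts at transcribed genes, had 0.21 ± 0.12 (limma adjusted p = 0.41).

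Some of these genes varied more among the control arrays than between the groups. smarcad1.S read 60.9, 52.7 and 56.1 on the depleted arrays, against 88.3, 60.5 and 37.0 on the control arrays. chd1.S read 187, 177 and 221 on the depleted arrays, against 263, 185 and 130 on the control arrays, and arid4a.S, which encodes a partner of the SIN3 deacetylase complex, read 89.3, 80.0 and 96.8 on the depleted arrays, against 130, 94.3 and 62.6 on the control arrays. In each of these, control array 1 was the highest and control array 3 the lowest of all 6 arrays. That held for 12 of the 112 chromatin probe sets (10.7%), for 6.09% of all tested and for 6.60% of those with 1 gene symbol. The control SD on the log2 scale was the larger in 69 of the 112 (61.6%), against 52.8% of all tested and 53.5% of those with 1 gene symbol. Among the tested probe sets of the other chromatin genes described below, these shares were 11.1% and 58.9%.

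Histone deacetylases and many sirtuins remove acetyl groups, and some of these enzymes act in repressor complexes. None of 8 tested hdac probe sets was called in limma, and 1 had an unadjusted p under 0.05 (6.62% and 19.0% of all tested). It belongs to hdac8.L, known as the deacetylase of cohesin, which read 621, 633 and 700 on the depleted arrays, against 731, 761 and 716 on the control arrays (log2 change -0.18 ± 0.07 SE, limma adjusted p = 0.18). hdac1, the main deacetylase of NuRD, SIN3 and CoREST complexes, had 0.04 ± 0.07 in hdac1.L and 0.01 ± 0.11 and 0.00 ± 0.08 in hdac1.S. None of 8 tested sirtuin probe sets was called in limma and none had an unadjusted p under 0.05, beside the same shares. Changes were positive in 6 of the 8 and negative in 2, with a median log2 change of 0.06. The one with the lowest p, sirt3.2.L of the mitochondrial sirtuins, read 426, 312 and 428 on the depleted arrays, against 456, 453 and 467 on the control arrays, and its log2 change of -0.25 ± 0.11 (SE) was -0.10 without depleted array 2. All 4 probe sets of sirt1.L were below the filter.

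Demethylases, acetyltransferases and bromodomain proteins had no call in limma among 9, 2 and 6 tested probe sets (6.62% of all tested). None had an unadjusted p under 0.05 (19.0% of all tested). kdm1a.S, the lysine demethylase of the CoREST complex, had -0.17 ± 0.08 on one probe set and 0.01 ± 0.08 on the other. kdm3a had -0.18 ± 0.09 in kdm3a.L and -0.02 ± 0.07 in kdm3a.S, and kdm6a.S, which removes the Polycomb mark, -0.04 ± 0.12 and -0.08 ± 0.10 (SE). kdm2b.L had 0.16 ± 0.08 and 0.07 ± 0.09 on its probe sets, and kdm7a.S 0.14 ± 0.09. Among the 9 demethylase probe sets 4 changes were positive and 5 negative. The acetyltransferase gene kat7.S read 25.4, 25.4 and 24.9 on the depleted arrays, against 23.2, 21.3 and 24.4 on the control arrays, near the filter's signal.

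The largest change of any chromatin probe set was not called. brd3.S, a bromodomain gene of the BET family, read 134, 134 and 216 on the depleted arrays, against 134, 111 and 67.6 on the control arrays. Depleted arrays 1 and 2 and control array 1 all read 133.955, so the groups overlapped (such ties are described under processing). The log2 change of 0.65 ± 0.29 (SE, limma adjusted p = 0.30) has a 95% interval from -0.05 to 1.35. Another BET gene, brd2.S, had 0.17 ± 0.12 on 1 probe set and -0.02 ± 0.15 on the other, and brd9.L, a subunit of a SWI/SNF variant, 0.15 ± 0.07. Among the other ARID genes, none of 7 probe sets was called in limma (6.62% of all tested). An unadjusted p under 0.05 (19.0% of all tested) was found for 1, of arid3b.L. It had a log2 change of -0.28 ± 0.11, while the other arid3b.L probe set had 0.17 ± 0.10, and on both the groups did not overlap, in opposite directions.

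Homeologs were compared within each array, as the log2 signal of .L minus that of .S, each by its brightest tested probe set. This removes what both share, although probes of one homeolog may bind RNA of the other. Of 72 gene names, 15 were on the array as both homeologs, and all 15 were tested as both. A further 33 were on the array as .L alone and 23 as .S alone, tested or not, and suz12 carries no ending. In limma over all 1385 pairs of the table, 1 of the 15 chromatin pairs differed in its change, dnmt1, against 12.6% of all pairs. An unadjusted p under 0.05 was found for 2 of the 15, dnmt1 and eed. Among all pairs at least the 12.6% called have such a p, and the full share is not given here.

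dnmt1 encodes the maintenance DNA methyltransferase, which in Xenopus is known to keep embryonic genes silent before zygotic transcription starts. dnmt1.L read 566, 546 and 604 on the depleted arrays, against 537, 574 and 580 on the control arrays. dnmt1.S read 552, 557 and 633 on the depleted arrays, against 649, 666 and 697 on the control arrays. The .L groups overlapped and the .S groups did not, with log2 changes of 0.02 ± 0.07 and -0.21 ± 0.07 (SE), neither of which was called on its own. The .L change exceeded the .S change by 0.23 ± 0.06 on the log2 scale (limma adjusted p = 0.036), but leaving out any 1 of the 6 arrays ended this call, with adjusted p between 0.073 and 0.095. The other tested dnmt1.S probe set had -0.20 ± 0.15.

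For eed the .L change exceeded the .S change by 0.21 ± 0.07 (95% interval 0.06 to 0.36, limma adjusted p = 0.066), and without depleted array 1 this passed, with 0.26 and adjusted p = 0.041. The intervals of the difference for prmt1, hdac1, cbx3, kmt5a and sirt6 reached no further than 0.23 from 0. The kmt5a pair used the brightest kmt5a.S probe set, Xl2.54481.1.S1_at. The called Xl2.46189.1.A1_at, with a log2 change of -0.51, was not compared with kmt5a.L. Those for arid2, chd1, kat7 and cbx8 reached 0.58, 0.48, -0.56 and 0.58, so differences of this size lie within their intervals. In 7 of the 15 pairs both homeologs had a change of the same sign, and the share over all pairs is not given here. Over single probe sets, 28 of 60 of .L genes and 17 of 49 of .S genes had a positive change, 46.7% and 34.7%, against 49.4% and 50.3% of all tested .L and .S probe sets. The calls were 2 of the 60 and 1 of the 49, against 7.26% of all .L and 6.53% of all .S probe sets.

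**Figure D4:**
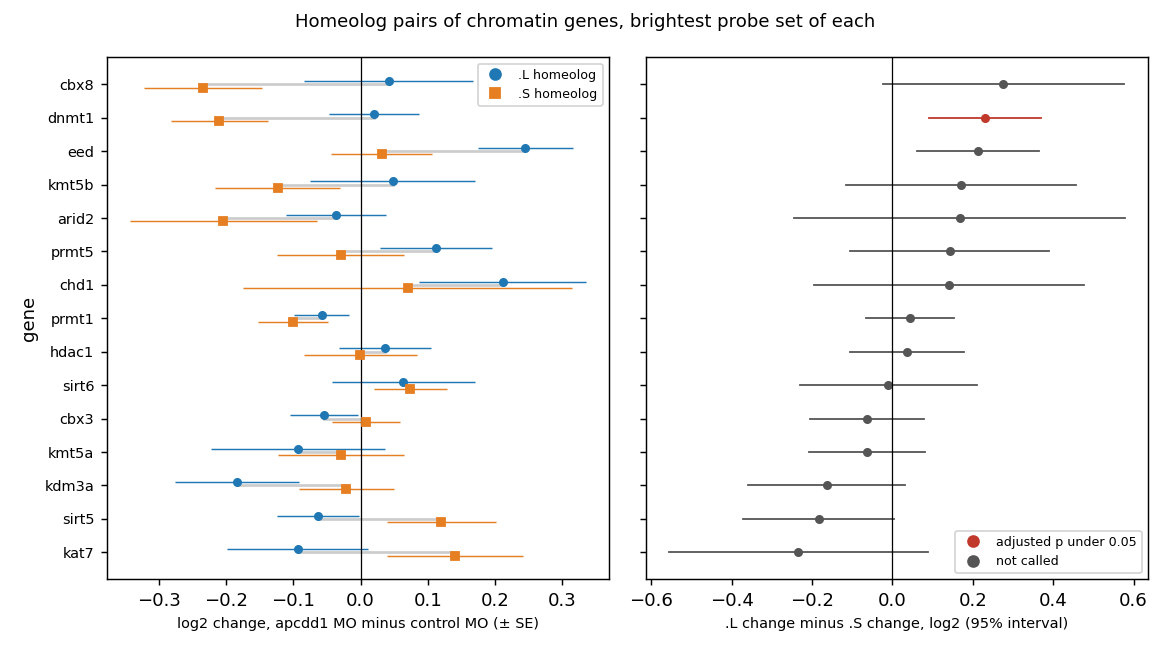
For 15 chromatin genes (vertical axis), the left panel gives the log2 change, apcdd1-depleted minus control, of the .L (circles) and .S (squares) homeolog with SE, and the right panel the .L change minus the .S change with its 95% interval. dnmt1 (red) is the pair called to differ, and the intervals of 13 of the others reach 0.

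The partners of these enzymes were read through a list of other chromatin genes outside the name rule, of which 108 of 151 entries were on the array. Of 180 tested probe sets 4 fell and 0 rose in limma (2.22% called, against 6.62% of all tested), 23 had an unadjusted p under 0.05 (12.8%, against 19.0% of all tested), and the median log2 change was 0.00. The 4 falls were in 2 of the 13 probe sets of DNA methylation readers and 2 of the 4 of further methyltransferases. Of all tested probe sets 3.61% were called lower. Among the 13 reader probe sets 7 changes were positive and 6 negative, with a median log2 change of 0.01 and a largest of 0.35. Among the 4 of further methyltransferases 1 was positive and 3 negative. uhrf1 encodes the protein that brings Dnmt1 to newly copied DNA. uhrf1.S read 733, 734 and 779 on the depleted arrays, against 914, 934 and 870 on the control arrays (log2 change -0.28 ± 0.06 SE, limma adjusted p = 0.023). Its probe set Xl2.55524.1.S1_x_at, of a kind that can also bind related transcripts, fell by 0.24 on the log2 scale (limma adjusted p = 0.049), a call that ended without the signal filter (0.066). Of the remaining uhrf1.S probe sets, Xl2.20081.1.S1_at had -0.07 ± 0.05, and Xl2.15117.1.S1_at read 633, 596 and 682 on the depleted arrays, against 906, 605 and 442 on the control arrays.

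suv39h1 and suv39h2 encode the methyltransferases that mark constitutive heterochromatin. suv39h1.L read 427, 415 and 426 on the depleted arrays, against 502, 510 and 528 on the control arrays (log2 change -0.28 ± 0.06 SE, limma adjusted p = 0.023). suv39h2.L read 364, 357 and 352 on the depleted arrays, against 468, 449 and 424 on the control arrays (-0.32 ± 0.07, limma adjusted p = 0.019), while its other probe set had 0.04 ± 0.07. On the called probe sets of all 3 genes the depleted arrays lay wholly lower. This held for 21 of the 180 tested partner probe sets and for 12.8% of all tested. Each call depended on single arrays. suv39h2.L passed without depleted array 1, control array 1 or control array 3 and not without the others (limma adjusted p from 0.014 to 0.097), suv39h1.L only without control array 1 (0.034 to 0.10), the first uhrf1.S probe set only without control array 3 (0.021 to 0.12), and Xl2.55524.1.S1_x_at in none of the 6 (0.057 to 0.13).

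**Figure D5:**
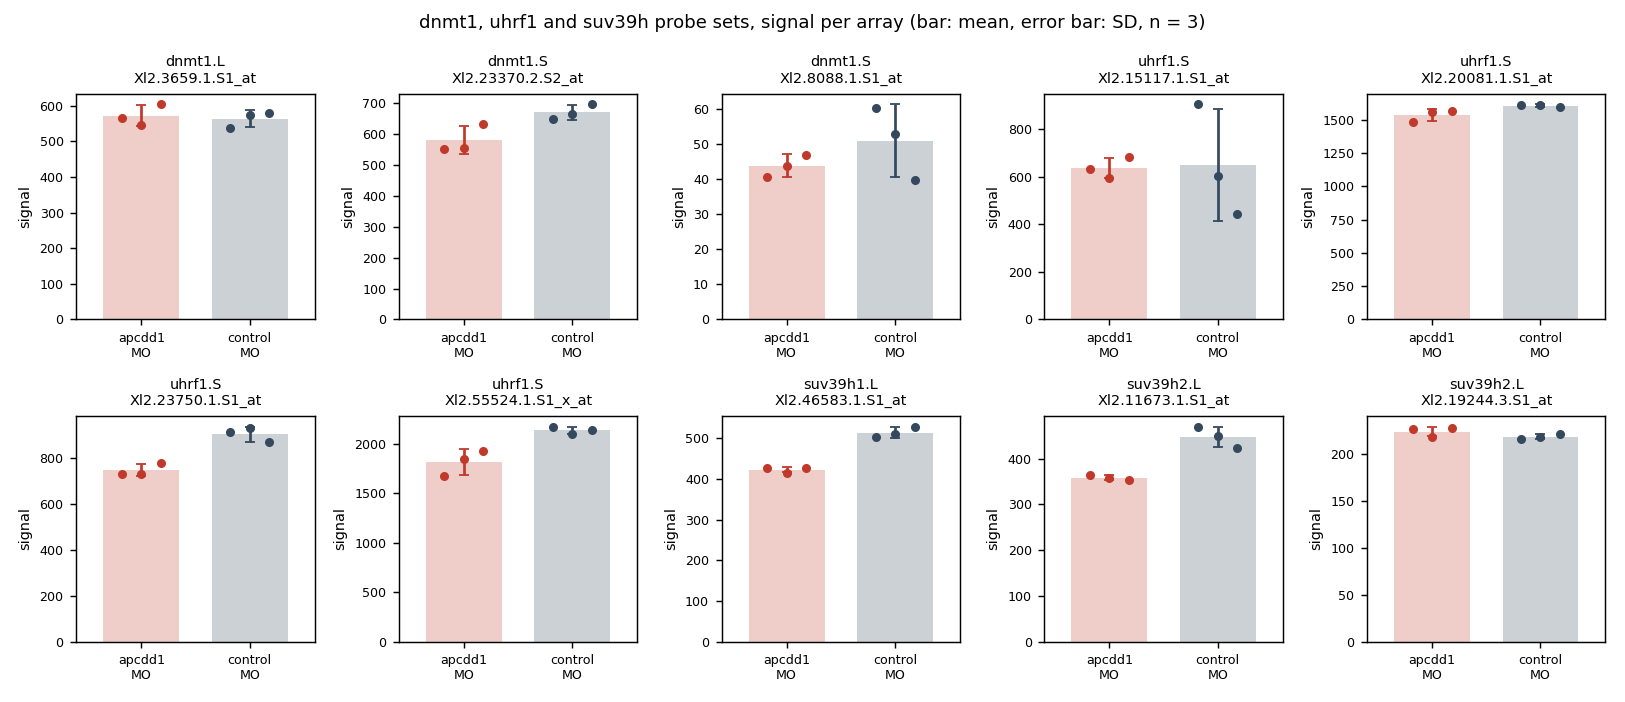
Signal per array (vertical axes, linear from 0) of the tested dnmt1, uhrf1 and suv39h probe sets in apcdd1-depleted (left, red) and control (right, grey) arrays; bars are means, error bars SD, points single arrays, n = 3. Depleted arrays lie wholly below control arrays on Xl2.23370.2.S2_at of dnmt1.S, on 3 of the 4 uhrf1.S probe sets, on suv39h1.L and on 1 of the 2 suv39h2.L probe sets. The same holds for 12.8% of all tested probe sets.

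Of the partner genes with the next lowest p, none was called. wdr82.S, a subunit of complexes that methylate histone H3 at active promoters, read 643, 638 and 641 on the depleted arrays, against 572, 536 and 504 on the control arrays (log2 change 0.25 ± 0.07 SE, limma adjusted p = 0.0501), while wdr82.L had -0.09 ± 0.06. Without control array 1 wdr82.S passed, with an adjusted p of 0.029. ring1.S, a ubiquitin ligase gene of Polycomb repressive complex 1, had 0.25 ± 0.07 and ring1.L 0.25 ± 0.10. The remodeler subunit genes ss18.L, actr5.S and baz1a.S had -0.29 ± 0.08, -0.38 ± 0.11 and -0.26 ± 0.08, and morf4l1.S, of acetyltransferase and deacetylase complexes, -0.19 ± 0.06 (SE). The other tested probe sets of baz1a.S and morf4l1.S had -0.15 ± 0.12 and 0.01 ± 0.07. bmi1.S, of Polycomb repressive complex 1, had -0.28 ± 0.10 and bmi1.L -0.01 ± 0.09. Without depleted array 3 baz1a.S passed, with a log2 change of -0.34 and limma adjusted p = 0.048. None of the 35 probe sets of histone chaperones was called in limma, against 6.62% of all tested. An unadjusted p under 0.05 was found for 3, against 19.0% of all tested.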

How the data were processed

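The values are the signal intensities of the array table as the authors deposited them, on a linear scale. The submitters' processing notes name MAS5 without a version. In 6.57% of probe sets 2 or more arrays carry the identical value, so the summary and scaling stay unsettled. Signals were raised to at least 1 and log2-transformed. After 160 control probe sets were set apart, 12990 probe sets whose log2 signal averaged below 4.48, the 40th percentile, were dropped, 23 of them of chromatin genes. The test was limma 3.58.1 under R 4.3.3, two-sided: lmFit, then eBayes with its trend and robust options, and intervals of 95%. Precision is limited by the number of arrays. With 3 arrays a group, permutation p-values stop at 0.1, so none is given.

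The members, the partner list and the alternatives were chosen with earlier results of these data known. The naming rule took every called member with the other probe sets and the other homeolog of its gene, called homeolog pairs, the lowest p in each class without a call, and the 10 partner genes of lowest p (11 probe sets, since uhrf1.S has 2). Other members were named after their values were seen. Gene symbols come from the platform annotation, which can be old, and 3 suz12 probe sets were not matched in the RefSeq table. Alternatives changed the scaling (quantile or median), the offset (16 added before log2), the filter (none, or the 60th percentile), the variance model, array weights, gene means, a block for replicate number, and the arrays used (each left out). No sequences or coordinates were used.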

Additional observations from a re-analysis of the deposited data

How the results depend on the processing

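With 3 chromatin probe sets called, every count is small. The 2 higher and 1 lower were found under median centring, quantile normalization, an offset of 16 before log2, no filter, the replicate block and eBayes without trend and robust. At the 60th percentile filter 1 was higher and 1 lower. With each probe set's own variance 0 and 0 were called, and of all tested probe sets 1.01%. With array weights 5 were higher and 11 lower, 14.3% of the chromatin probe sets against 22.8% of all tested. Averaged by gene, 1 was higher and 0 lower. Leaving out single arrays gave 0 to 2 higher and 0 to 2 lower. The 3 called probe sets kept their call in 36 of 44 values. Their sign held in all 44, but their groups do not overlap, so leaving out an array cannot change it. Another filter or variance model leaves the change itself as it was. The pair count was 0 with the replicate block, without trend and robust, with own variance and over the mean of all probe sets, 2 with array weights, and 0 to 1 without single arrays. Partner genes had 1 higher under quantile normalization and at the 60th percentile, and 13 higher and 13 lower with array weights. They had 1 lower with the replicate block, of suv39h2.L, and 1 with own variance, of suv39h1.L, so no single fall held in both. Neither called uhrf1.S probe set passed in these settings. Partner genes had 2 lower without trend and robust, and 3 with no filter. Without single arrays 0 to 1 were higher and 0 to 4 lower. Among the probe sets followed through this setting, 3 uncalled changes crossed 0: kmt5a.L ran from -0.25 to 0.0099, Xl2.46189.3.S1_a_at of kmt5a.S from -0.16 to 0.10 and Xl2.54481.1.S1_at from -0.14 to 0.036. The deviations of same-numbered batches had r = 0.05, 0.02 and -0.27, and those of differently numbered ones r from -0.24 to 0.21. With 3 arrays a group, these values cannot tell whether same-numbered batches belong together. The cause of these shifts was not tested. Dim probe sets limit what could be seen of sirt1.L, hdac9.S, smarca1.L, setdb2.S and kmt5c.L.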

Other observations

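Without the signal filter, the 23 dim chromatin probe sets had log2 changes from -0.18 to 0.48 and limma adjusted p from 0.12 to 0.97, so none was called. Of the 21 genes with several tested probe sets, 14 had changes of 1 sign on all of them.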
